A study of Mus musculus with 12 samples.

Results

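Adipocyte genes were examined in the left ventricle (LV) of adult mice, as 10 genes chosen by name for their known expression in fat cells: *Adipoq*, *Lep*, *Retn*, *Cfd*, *Plin1*, *Cidec*, *Ucp1*, *Car3*, *Fabp4* and *Pparg*. They are 10 of the 46983 genes counted in the deposited files. The rule that names them uses no measured value, but they were chosen with earlier results of these data known. The 12 libraries came from LVs of 12-week-old FVB offspring in 4 groups of 3 mice: *Wt* from non-diabetic pregnancy, *Wt* from diabetic pregnancy, *Hif1a*+/- from non-diabetic pregnancy and *Hif1a*+/- from diabetic pregnancy. The mothers were *Wt* FVB females, made diabetic by streptozotocin before mating in the diabetic groups, and the fathers carried 1 null allele of *Hif1a*, the gene of the oxygen-regulated subunit of hypoxia-inducible factor 1. The deletion is global and present from conception, so it is not limited to any cell type of the heart. Animals are named by the number in their sample titles.

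White adipocytes store triglyceride in a single large droplet coated by perilipin 1 and release hormones such as adiponectin, leptin and resistin. Brown adipocytes hold many small droplets and burn fuel for heat through uncoupling protein 1. In the heart, fat cells lie mainly in the epicardial and perivascular tissue, whereas cardiac muscle takes up fatty acids from the blood through the capillary endothelium, which itself makes the fatty acid-binding protein FABP4. In bulk RNA, fewer cells of a type and less RNA per cell cannot be told apart.

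Levels are given as CPM, the count on a gene scaled by the TMM method to a library size common to all samples. In 3′-seq the reads come from the 3′ end of a transcript, so levels of different genes can be set side by side without a correction for transcript length. Intervals are exact Poisson 95% intervals and cover counting error only. The total count per library lay between 16132442 and 39812939, and a count of 0 allows a level of up to 3 counts, which is 0.0771 to 0.187 CPM. Sex is female in the sample labels and male in the series text, and Y-linked counts exceeded *Xist* counts in 11 of the 12 libraries, the exception being diabetic *Hif1a*+/- replicate 72. Haemoglobin-rich libraries also stood apart: the summed level of 5 red cell markers was 7320 CPM in non-diabetic *Wt* replicate 25 and 1770 CPM in diabetic *Wt* replicate 50, against 185 to 734 CPM in the other 10 libraries. For some of the results that may depend on these libraries, values without them are also given.

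The tissue label was checked against marker genes. Summed over 6 ventricular cardiomyocyte markers, the level was 69100 to 79200 CPM per library, and the 6 endothelial markers summed to 827 to 1170 CPM. Markers of tissues that could be dissected along with the LV were low, at 1.46 to 3.2 CPM for 8 skeletal muscle genes, 0.676 to 2.2 CPM for 6 thymus genes and 25.2 to 70.8 CPM for 5 atrial genes. *Hif1a* itself had 55.7, 57 and 71.8 CPM in non-diabetic *Wt*, and 89.4, 78.8 and 88.9 CPM in non-diabetic *Hif1a*+/-. In diabetic *Wt* it had 47.9, 59.3 and 58.6 CPM, and in diabetic *Hif1a*+/- 70.5, 64.8 and 81.5 CPM. In both pregnancies all *Hif1a*+/- libraries lay above all *Wt* libraries. Over both pregnancies the log2 fold change was 0.43 (unadjusted p = 0.000243, adjusted p = 0.596 by edgeR). Its 3′ reads lie outside the early exon that the null allele lacks, so these levels do not measure the loss of 1 copy.

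*Adipoq* encodes adiponectin, the most abundant hormone of fat cells, and lies on chromosome 16 from 23146536 to 23158028 on the plus strand of GRCm38. The 300 bases around its start are printed because it was the adipocyte gene with unadjusted p values under 0.05 between groups. Those of *Lep* and *Ucp1* are printed beside it because both genes were nearly absent from the LV. All are 5′ to 3′ in the direction of the gene, from 250 bases before the annotated start to 50 after it, from RefSeq promoters of GRCm38.p6. Capitals mark every match, on either strand, to AGGTCA, the half-site of nuclear receptors such as PPARG, to TTGCGCAA, a palindromic site of C/EBP factors, or to CCAAT.
Adipoq, chr16:23146286-23146585, plus strand: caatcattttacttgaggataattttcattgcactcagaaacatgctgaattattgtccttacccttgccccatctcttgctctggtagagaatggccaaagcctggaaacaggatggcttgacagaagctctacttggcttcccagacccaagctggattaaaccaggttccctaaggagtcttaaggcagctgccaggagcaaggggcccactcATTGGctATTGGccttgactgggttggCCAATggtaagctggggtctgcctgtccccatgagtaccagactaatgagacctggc
Lep, chr6:29059971-29060270, plus strand: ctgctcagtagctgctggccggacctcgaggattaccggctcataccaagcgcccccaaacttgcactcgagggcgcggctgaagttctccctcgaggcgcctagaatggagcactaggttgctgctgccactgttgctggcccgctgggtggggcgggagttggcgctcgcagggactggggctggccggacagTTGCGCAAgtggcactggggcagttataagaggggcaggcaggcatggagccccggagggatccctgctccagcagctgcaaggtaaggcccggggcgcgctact
Ucp1, chr8:83290098-83290397, plus strand: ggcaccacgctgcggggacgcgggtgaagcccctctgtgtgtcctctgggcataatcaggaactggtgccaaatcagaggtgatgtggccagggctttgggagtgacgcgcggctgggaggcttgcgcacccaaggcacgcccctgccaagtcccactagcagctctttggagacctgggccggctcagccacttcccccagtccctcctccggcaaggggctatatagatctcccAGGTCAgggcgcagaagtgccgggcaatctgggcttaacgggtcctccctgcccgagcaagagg

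The *Adipoq* window held 3 CCAAT matches, 34, 27 and 7 bases before the start, the first pair on the reverse strand, and neither of the other motifs. The *Lep* window held 1 TTGCGCAA match 55 bases before the start, and the *Ucp1* window held 1 AGGTCA match 14 bases before the start. None of these matches overlapped another. Of 32851 promoter windows of the same length, 16.3% held AGGTCA, 0.183% held TTGCGCAA and 37.4% held CCAAT. Windows were found for 8 of the 10 genes, not for *Fabp4* and *Car3*. AGGTCA occurred in windows of 2 of these 8 genes (*Ucp1* and *Pparg*), TTGCGCAA in 1 (*Lep*) and CCAAT in 2 (*Adipoq* and *Pparg*). A match describes the letters and does not show a bound site.

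Over the 12 libraries the mean levels of the 10 genes spanned from 0.00428 CPM for *Ucp1* to 723 CPM for *Fabp4*. In ascending order they were *Ucp1* (0.00428), *Lep* (0.0397), *Retn* (0.285), *Plin1* (0.442), *Adipoq* (0.6), *Cidec* (0.723), *Cfd* (2.51), *Car3* (4.86), *Pparg* (14.2) and *Fabp4* (723 CPM). The ranges over libraries of neighbours in this order overlapped from *Retn* to *Car3* and between *Ucp1* and *Lep*. *Pparg* and *Fabp4* each lay above the highest library of every gene before them. The 7 genes with enough counts to be tested were *Adipoq*, *Cfd*, *Plin1*, *Cidec*, *Car3*, *Fabp4* and *Pparg*, and *Lep*, *Retn* and *Ucp1* were removed by the filter on low counts.

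**Figure D1:**
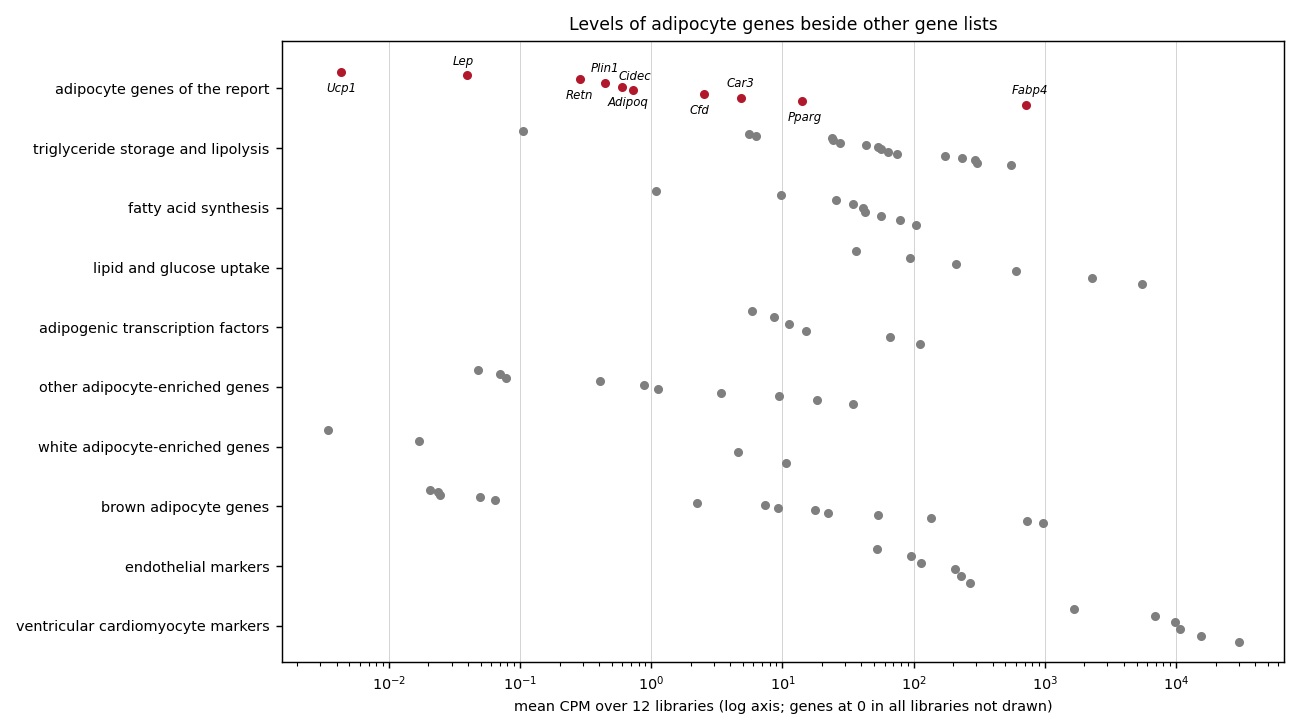
Mean CPM over 12 libraries on a log axis, 1 point per gene, for the 10 adipocyte genes (red, named) and for genes of other lists (grey). *Ucp1* and *Lep* lie below 0.1 CPM, *Retn*, *Plin1*, *Adipoq* and *Cidec* between 0.1 and 1 CPM, and *Fabp4*, at 723 CPM, lies above all 6 endothelial markers.

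*Adipoq* was counted 171 times in all, in every library. In non-diabetic *Wt* its level was 0.374 (replicate 25, 6 counts), 1.09 (replicate 42, 24 counts) and 0.899 CPM (replicate 89, 22 counts). In diabetic *Wt* it was 0.185 (replicate 50, 4 counts), 0.783 (replicate 7, 23 counts) and 0.914 CPM (replicate 80, 16 counts). Both *Wt* groups therefore held 1 low library, and these were the haemoglobin-rich libraries 25 and 50. In non-diabetic *Hif1a*+/- the level was 0.351 (replicate 14, 9 counts), 0.169 (replicate 32, 3 counts) and 0.251 CPM (replicate 44, 5 counts), and in diabetic *Hif1a*+/- it was 0.591 (replicate 66, 23 counts), 0.748 (replicate 72, 17 counts) and 0.839 CPM (replicate 77, 19 counts). The 3 non-diabetic *Hif1a*+/- libraries lay below all libraries of diabetic *Hif1a*+/- and of non-diabetic *Wt*, and diabetic *Wt* replicate 50, at 0.185 CPM, lay among them. The counting intervals were wide, from 0.0349 to 0.494 CPM in replicate 32 and from 0.699 to 1.62 CPM in replicate 42. Within groups the variance was 2.36 times that of counting alone, and over all libraries the highest level was 6.46 times the lowest.

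The other secreted products were lower or more variable. *Lep*, the gene of leptin (chromosome 6, 29060220 to 29073877, plus strand), had 10 counts over the 12 libraries and 0 in 5 of them. Its level was 0, 0.0909 and 0 CPM in non-diabetic *Wt*, 0.0923, 0.0341 and 0.0571 CPM in diabetic *Wt*, and 0.039, 0.113 and 0.0503 CPM in non-diabetic *Hif1a*+/-. All 3 diabetic *Hif1a*+/- libraries had 0 counts, which allows levels of up to 0.0771, 0.132 and 0.133 CPM. In an alternative fit without the filter on low counts, diabetic against non-diabetic *Hif1a*+/- gave -3.68 on the log2 scale (edgeR, unadjusted p = 0.0336, adjusted p = 0.461). Diabetic *Hif1a*+/- against diabetic *Wt* gave -3.57 (edgeR, unadjusted p = 0.0386, adjusted p = 0.79). Each rests on 0 counts against 4, and neither was called. DESeq2 gave unadjusted p values of 0.103 and 0.117 for the same comparisons.

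*Retn*, the gene of resistin (chromosome 8, 3655770 to 3660110, plus strand), had 2 to 11 counts per library. Its level was 0.125, 0.227 and 0.245 CPM in non-diabetic *Wt* and 0.231, 0.272 and 0.286 CPM in diabetic *Wt*. In non-diabetic *Hif1a*+/- it was 0.273, 0.451 and 0.352 CPM, all above non-diabetic *Wt*, in the opposite order to *Adipoq*. Diabetic *Hif1a*+/- had 0.257, 0.484 and 0.221 CPM. Within groups the variance of *Retn* was 0.625 times that of counting, which does not measure differences between groups. In an alternative fit without the filter on low counts, non-diabetic *Hif1a*+/- against non-diabetic *Wt* gave 0.76 on the log2 scale (edgeR, unadjusted p = 0.212).

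*Cfd* encodes adipsin, complement factor D, a serine protease released by fat cells (chromosome 10, 79890853 to 79892655, plus strand). Its level was 0.996, 1.82 and 3.72 CPM in non-diabetic *Wt* and 2.12, 1.91 and 3.31 CPM in diabetic *Wt*. It was 2.65, 1.63 and 1.41 CPM in non-diabetic *Hif1a*+/- and 1.7, 5.19 and 3.71 CPM in diabetic *Hif1a*+/-. All 4 groups overlapped, and the highest library was diabetic *Hif1a*+/- replicate 72, the library that stood apart in its *Xist* counts. With 700 counts in all, the variance within groups was 14.1 times that of counting, so the spread between mice was well beyond counting error.

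*Plin1*, the gene of perilipin 1 on the surface of lipid droplets (chromosome 7, 79720218 to 79732903, minus strand), was counted 4 to 16 times per library. Non-diabetic *Wt* had 0.374, 0.728 and 0.613 CPM and diabetic *Wt* had 0.185, 0.409 and 0.571 CPM. Non-diabetic *Hif1a*+/- had 0.273, 0.732 and 0.251 CPM and diabetic *Hif1a*+/- had 0.154, 0.44 and 0.574 CPM. The groups overlapped throughout, and *Plin1* did not share the low level of *Adipoq* in non-diabetic *Hif1a*+/- replicate 32, where it reached its highest value.

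*Cidec* encodes a protein that lets lipid droplets grow by fusion (chromosome 6, 113424634 to 113435760, minus strand). Its level was 0.311, 1.27 and 0.613 CPM in non-diabetic *Wt*, 0.415, 0.988 and 0.8 CPM in diabetic *Wt*, 0.545, 0.676 and 0.704 CPM in non-diabetic *Hif1a*+/-, and 0.591, 1.32 and 0.442 CPM in diabetic *Hif1a*+/-. The lowest libraries were again replicates 25 and 50, and the group means, 0.642 to 0.784 CPM, were close together beside SDs of up to 0.492 CPM (n = 3).

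*Ucp1*, the uncoupling protein that defines active brown and beige fat (chromosome 8, 83290352 to 83298452, plus strand), had 0 counts in 11 libraries. The limits that 0 allows there were 0.102 to 0.187 CPM. The exception was diabetic *Hif1a*+/- replicate 66, the deepest library, with 2 counts or 0.0514 CPM (0.00622 to 0.186 CPM).

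*Car3* encodes carbonic anhydrase 3, abundant in fat cells and also made in skeletal muscle and liver (chromosome 3, 14863512 to 14872523, plus strand). Its level was 2.37, 6.14 and 5.56 CPM in non-diabetic *Wt* and 2.86, 5.45 and 5.48 CPM in diabetic *Wt*. In non-diabetic *Hif1a*+/- it was 5.1, 3.94 and 3.77 CPM, and in diabetic *Hif1a*+/- 3.98, 7.97 and 5.65 CPM. As for *Adipoq*, the lowest library of each *Wt* group was replicate 25 or 50. Per *Adipoq* read, *Car3* had 5.62 to 6.96 reads in 5 of the 6 *Wt* libraries and 15.5 in diabetic *Wt* replicate 50. The ratio was 14.6 to 23.3 in the 3 non-diabetic *Hif1a*+/- libraries and 6.74 to 10.6 in diabetic *Hif1a*+/-. Its high values rest on few *Adipoq* reads, 9, 3 and 5 in non-diabetic *Hif1a*+/- and 4 in replicate 50. They therefore do not show a separate difference of *Car3*. *Car3* itself overlapped between non-diabetic *Hif1a*+/- and non-diabetic *Wt*, with a log2 fold change of -0.15 (SE 0.35, unadjusted p = 0.678 by edgeR).

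*Fabp4* encodes the fatty acid-binding protein of adipocytes, which capillary endothelial cells and macrophages also make (chromosome 3, 10204088 to 10208576, minus strand). It ranked between 129 and 214 among the genes of each library, with 10624 to 26821 counts. Its level was 662, 642 and 890 CPM in non-diabetic *Wt*, 653, 882 and 749 CPM in diabetic *Wt*, 645, 694 and 610 CPM in non-diabetic *Hif1a*+/-, and 689, 826 and 729 CPM in diabetic *Hif1a*+/-. All 4 groups overlapped, and the lowest library was non-diabetic *Hif1a*+/- replicate 44, at 610 CPM. The ratio of *Fabp4* to *Adipoq* reads ran from 588 to 4110 over the libraries. Its ratio to *Cdh5*, the endothelial VE-cadherin gene, ran from 2.4 to 4.1. *Adipoq* had 3 to 24 reads per library and *Cdh5* 3298 to 7531, so counting error widens the first ratio far more. The cell source of *Fabp4* was not tested. *Fabp4* itself varied 1.46-fold over the libraries and *Adipoq* 6.46-fold.

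*Pparg*, the nuclear receptor that drives fat cell differentiation (chromosome 6, 115360951 to 115490399, plus strand), is also made at low levels by endothelium and macrophages. It overlaps 1 annotated gene on the other strand (*Gm44079*), and whether counting used strand is not given in the sources used here. Its level was 17.7, 14.7 and 13.4 CPM in non-diabetic *Wt*, 16.3, 20.1 and 10.1 CPM in diabetic *Wt*, 14.1, 12.6 and 13.7 CPM in non-diabetic *Hif1a*+/-, and 15.8, 12.2 and 9.32 CPM in diabetic *Hif1a*+/-. Groups overlapped, and *Pparg* was not low in the libraries where *Adipoq* was low. No other adipocyte gene examined overlapped an annotated gene.

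**Figure D2:**
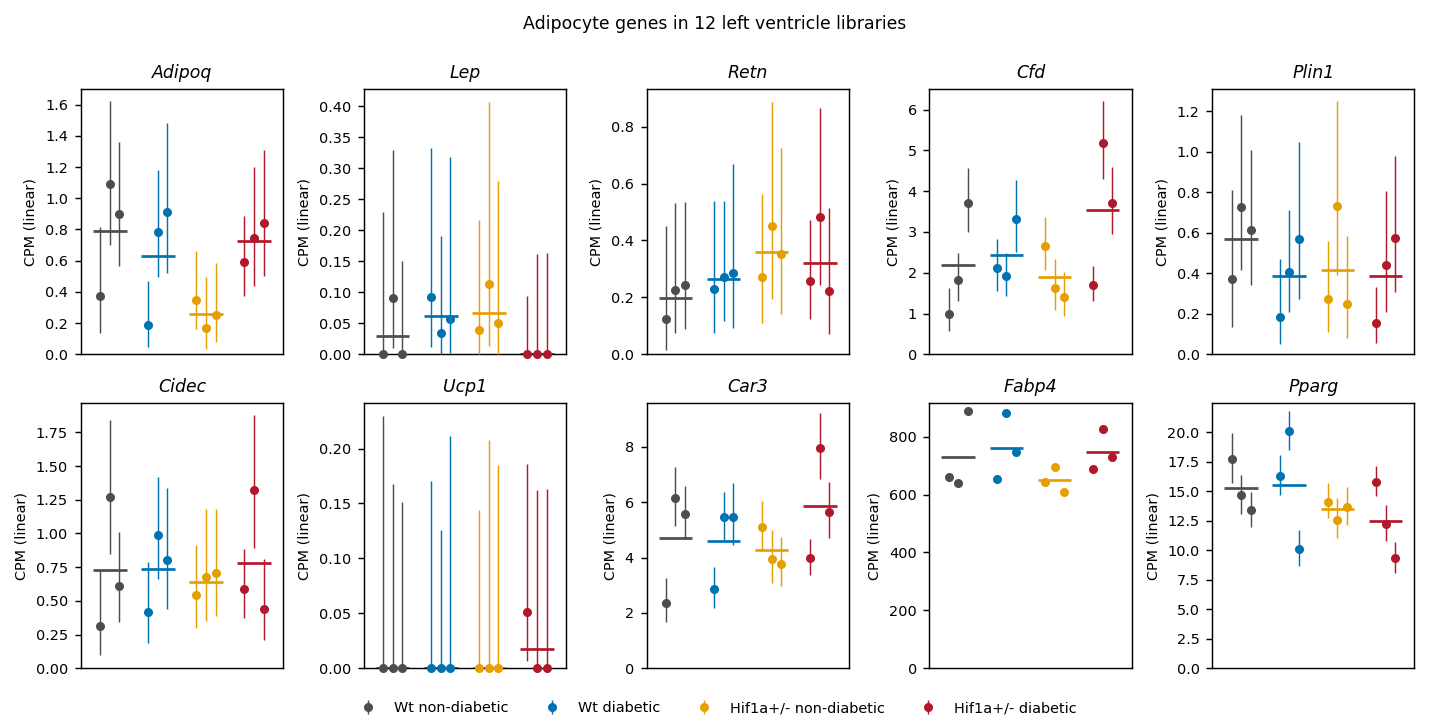
CPM of each of the 10 adipocyte genes in 12 libraries on a linear axis from 0, grouped by colour (3 libraries per group, in the order of the text), with exact Poisson 95% intervals and the group mean as a bar. *Adipoq* lies at or below 0.351 CPM in the 3 non-diabetic *Hif1a*+/- libraries and at or above 0.591 CPM in the 3 diabetic *Hif1a*+/- libraries, while *Fabp4* lies between 610 and 890 CPM in every library.

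Summed over the hormones, *Cfd* and the droplet genes *Plin1* and *Cidec*, 6 genes whose levels lay below 6 CPM, the level per library was 2.18 to 8.19 CPM with a median of 4.26 CPM. This group was formed after the levels were seen and no test was made on it. The lowest library was non-diabetic *Wt* replicate 25 at 2.18 CPM and the highest was diabetic *Hif1a*+/- replicate 72 at 8.19 CPM.

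Genes that act with these proteins were examined as lists. Receptors of adipokines were well detected: *Adipor1* had a mean of 274 CPM, *Adipor2* 163 CPM, the adiponectin-binding cadherin *Cdh13* 246 CPM and the leptin receptor *Lepr* 9.62 CPM. Storage and breakdown of triglyceride, which cardiac muscle also carries out, was represented by *Pnpla2* (adipose triglyceride lipase) at 552 CPM, *Dgat2* at 303 CPM, *Plin4* at 232 CPM and *Lipe* (hormone-sensitive lipase) at 43 CPM. *Lpl*, lipoprotein lipase, had 5530 CPM and the fatty acid transporter *Cd36* had 2270 CPM. Of the 10 other adipocyte-enriched genes, *Adrb3* (0.0705), *Acvr1c* (0.0481) and *Slc7a10* (0.0784 CPM) were near 0 on average. The rest of that list rose from *Pck1* (0.407), *Adig* (0.882), *Nnat* (1.12) and *Trarg1* (3.38) to *Sncg* (9.42), *Aoc3* (18.2) and *Npr3* (34.2 CPM). *Lgals12*, of the storage and lipolysis list, had 0.106 CPM.

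White and brown fat lists split in the same way. In the white list *Hoxc9* and *Hoxc10* had 0 counts in all 12 libraries and *Hoxc8* had 1, whereas *Agt* and *Mest* had 4.55 and 10.7 CPM. In the brown list *Lhx8* had 0 counts in all libraries, and *Zic1*, *Elovl3*, *Otop1* and *Slc27a2* had 0 counts in 8 or 9 libraries each. *Cox7a1* (969 CPM), *Cox8b* (727 CPM) and *Ppargc1a* (136 CPM), which serve mitochondria of heart muscle as well, made up most of the 1600 to 2460 CPM of the brown list. *Cidea*, a droplet protein of brown fat, had 22.4 CPM and *Prdm16* 17.6 CPM.

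Group differences were tested with edgeR's quasi-likelihood test, fitted to 14706 genes in all 12 libraries with Benjamini-Hochberg adjustment, and a gene was called at an adjusted p under 0.1. Comparisons that share a control group are not independent of each other. In every comparison edgeR called 0 of the 7 adipocyte genes tested and 0 of all genes (0%). DESeq2 also called 0 adipocyte genes in each, so what follows are estimates with their intervals and unadjusted p values. P values rest on the spread between mice within groups, estimated for each gene over all 4 groups together.

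Effects of maternal diabetes in *Wt* offspring were examined first. The estimates for the 7 genes ran from -0.61 (*Plin1*) to 0.11 (*Cfd*) on the log2 scale, with a median of -0.02 against 0.01 over all genes tested. At an unadjusted p under 0.05, 0 of the 7 genes passed, where 2.78% of all genes did. DESeq2 called 0.0148% of its genes. For *Adipoq* the means were 0.788 ± 0.372 CPM in non-diabetic and 0.627 ± 0.389 CPM in diabetic *Wt* (SD, n = 3), a log2 fold change of -0.37 (95% interval -1.4 to 0.66). No adipocyte gene had groups that did not overlap, where 5.54% of all genes tested did.

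Loss of 1 *Hif1a* copy without maternal diabetes was the comparison in which *Adipoq* was lowest. Its mean was 0.257 ± 0.0909 CPM in *Hif1a*+/- and 0.788 ± 0.372 CPM in *Wt* (SD, n = 3), a log2 fold change of -1.59 (SE 0.55, 95% interval -2.78 to -0.41). By edgeR's quasi-likelihood test the unadjusted p was 0.0122 and the adjusted p was 1, so the difference did not pass the correction. The other 6 genes had estimates from -0.53 to -0.15, all below 0, and the median over the 7 was -0.22 against 0 for all genes. *Adipoq* was 1 of 7 genes with an unadjusted p under 0.05, where 0.959% of all genes passed, and the 1 tested gene whose groups did not overlap, where 4.81% did. *Retn*, not tested in the main fit, also did not overlap, in the other direction. DESeq2 called 0.00369% of its genes and gave *Adipoq* -1.61 with an adjusted p of 1. Red cell markers were low in the same comparison: the 4 tested had an unadjusted p under 0.05 and none was called, with a median log2 fold change of -2.93, and their sum was 361 to 413 CPM in non-diabetic *Hif1a*+/- against 491 to 7320 CPM in non-diabetic *Wt*. Their part in the *Adipoq* difference was not tested. Without haemoglobin-rich replicate 25 the *Adipoq* estimate was -1.89 (adjusted p = 1, which it also was without any other library).

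In *Hif1a*+/- offspring, diabetic pregnancy was compared with non-diabetic pregnancy. *Adipoq* had 0.726 ± 0.126 CPM after diabetic and 0.257 ± 0.0909 CPM after non-diabetic pregnancy (SD, n = 3), a log2 fold change of 1.41 (SE 0.55, 95% interval 0.24 to 2.59). The unadjusted p by edgeR was 0.0221 and the adjusted p 0.362. *Cfd* followed with 0.85 (-0.14 to 1.84, adjusted p = 0.467 by edgeR), *Car3* with 0.44 (-0.3 to 1.17), *Cidec* with 0.27 (-0.82 to 1.36) and *Fabp4* with 0.20 (-0.09 to 0.5). For each of these genes the highest diabetic *Hif1a*+/- library was replicate 72, the one that stood apart in its *Xist* counts. Their estimates without it are not given here. *Plin1* and *Pparg* had estimates of -0.15 and -0.11, and the median of the 7 was 0.27 against -0.01 for all genes.

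Many other genes had small p values in this comparison, which sets the scale for the adipocyte genes. At an unadjusted p under 0.05, 1 of the 7 passed and 12% of all genes did. Groups did not overlap for 1 of the 7, *Adipoq*, where 24.4% of all genes tested did, and 1 of 7 was near the first of these shares and below the second. *Lep*, not tested in the main fit, was at 0 counts in each library after diabetic pregnancy and at 1 or 2 counts after non-diabetic pregnancy. DESeq2 called 1.44% of its genes and gave *Adipoq* 1.46 with an adjusted p of 0.303. All 5 macrophage markers had positive estimates with an unadjusted p under 0.05, with *Lyz2* at 0.97 (adjusted p = 0.178 by edgeR), and their sum was 331 to 444 CPM against 166 to 256 CPM. The fibroblast marker *Dpt* was at 0.57 and the adventitial progenitor gene *Pi16* at 1.55 (adjusted p = 0.178 for each by edgeR). The part of these cells in the *Adipoq* difference was not tested. Leaving out replicate 72 gave *Adipoq* an estimate of 1.39 (adjusted p = 0.562 by edgeR, and 0.276 to 0.643 over the 12 libraries left out in turn).

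Between diabetic *Hif1a*+/- and non-diabetic *Wt*, the 2 groups that differ in both factors, the 7 estimates ran from -0.68 (*Plin1*) to 0.63 (*Cfd*), with a median of 0.03 against 0. *Adipoq* was at -0.18 (-1.17 to 0.81). At an unadjusted p under 0.05, 0 of the 7 passed, where 8.85% of all genes did, and 0 had groups without overlap, where 14.6% did. DESeq2 called 0.454% of its genes. The lipolysis inhibitor *G0s2* was at -1.01 in the same comparison (unadjusted p = 0.00163, adjusted p = 0.413 by edgeR).

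Diabetic *Hif1a*+/- offspring were also set against diabetic *Wt* offspring. Estimates for the 7 genes ran from -0.32 (*Pparg*) to 0.52 (*Cfd*), with a median of 0.05 against -0.01, and *Adipoq* was at 0.19 (-0.83 to 1.21). None passed an unadjusted p of 0.05, a count of 0 of 7 where 5.35% of all genes passed. Groups without overlap were found for 0 of the 7, where 7.94% of all genes tested had them, and for *Lep* among the genes not tested in the main fit. DESeq2 called 0.155% of its genes.

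**Figure D3:**
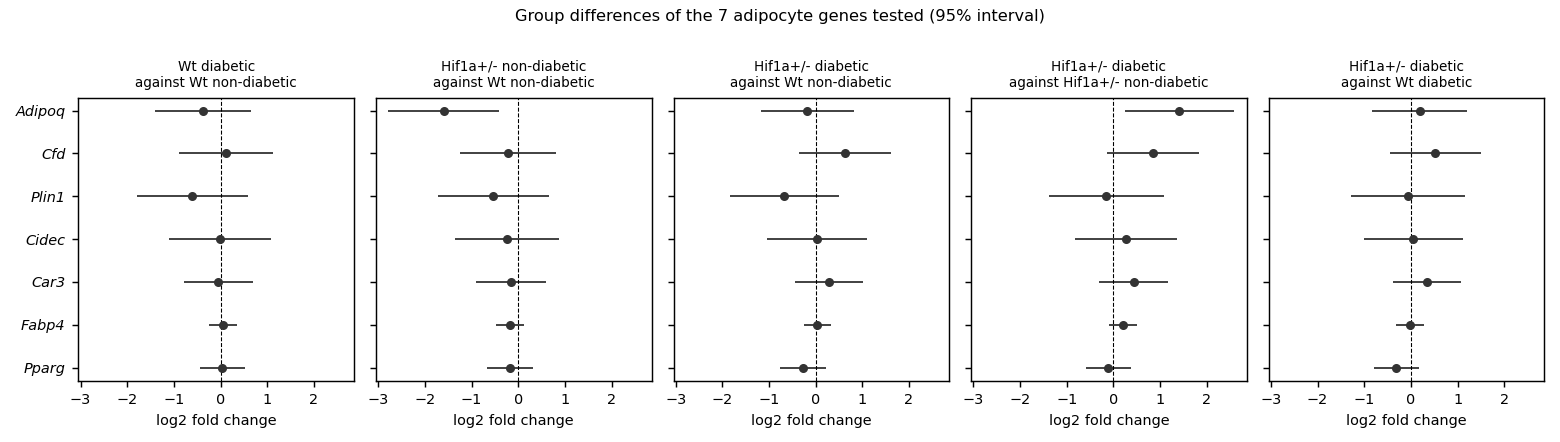
Log2 fold changes with 95% intervals of the 7 adipocyte genes tested, in 5 comparisons between groups (edgeR, 12 libraries in 1 fit). The interval of *Adipoq* excludes 0 in the comparison of non-diabetic *Hif1a*+/- with non-diabetic *Wt* (-2.78 to -0.41) and of diabetic with non-diabetic *Hif1a*+/- (0.24 to 2.59), before adjustment for 14706 genes, and the intervals of the other genes include 0.

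Across both genotypes, diabetic pregnancy gave *Adipoq* an estimate of 0.52 (-0.27 to 1.31) and *Cfd* 0.48 (-0.23 to 1.19). The 7 genes had 0 with an unadjusted p under 0.05, where 11.3% of all genes passed, and DESeq2 called 1.45% of its genes. Across both pregnancies, *Hif1a*+/- gave *Adipoq* an estimate of -0.70 (-1.49 to 0.09), and 0 of the 7 genes passed an unadjusted p of 0.05, where 2.69% of all genes did and DESeq2 called 0.0259%. The test of whether the effect of diabetic pregnancy differs between genotypes gave *Adipoq* 1.79 (SE 0.73, 95% interval 0.22 to 3.35), with an unadjusted p of 0.0286 and an adjusted p of 0.998 by edgeR. *Adipoq* was 1 of 7 below 0.05 before adjustment in that test, where 2.52% of all genes were, and DESeq2 called 0% of its genes. For any difference among the 4 groups, 0 of the 7 passed an unadjusted p of 0.05, where 6% of all genes did. *Adipoq* had an unadjusted p of 0.0615 and an adjusted p of 0.824 by edgeR, and DESeq2 called 0.771% of its genes.

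Lists of other fat-related genes were counted in the comparison of diabetic with non-diabetic *Hif1a*+/-, where 12% of all genes had an unadjusted p under 0.05 and 0 genes were called. Of 15 tested genes of triglyceride storage and lipolysis, 4 passed 0.05: *G0s2* was at -0.77, and *Agpat2*, *Bscl2* and *Hilpda* were at 0.23, 0.29 and 0.33. Of 9 fatty acid synthesis genes 1 passed, *Me1* at -0.22. Of 6 adipogenic transcription factors 1 passed, *Cebpa* at 0.37, and of 9 brown fat genes 2 passed, *Prdm16* at -0.28 and *Gk* at -0.26. Of 5 adipose progenitor genes 2 passed, *Pi16* at 1.55 and *Cd34* at 0.44. The lists of lipid uptake (6 genes), adipokine receptors (4), other adipokines (10), other adipocyte-enriched genes (7) and white fat genes (2) held 0 each.

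Variation from mouse to mouse was then examined within groups, as a slope on *Adipoq* after the 4 group means were taken out (edgeR, 14705 genes). The slope was that of each gene's log2 level on log2(CPM + 1) of *Adipoq*. At 0.169 to 1.09 CPM, adding 1 shrinks the changes of *Adipoq*. A slope of 1 therefore means a smaller factor of change than that of *Adipoq* itself. On this scale the 4 low-level fat cell genes tested had slopes above 1: *Cidec* 1.96 (SE 0.82), *Car3* 1.86 (SE 0.38), *Plin1* 1.80 (SE 0.96) and *Cfd* 1.42 (SE 0.77). *Fabp4* had a slope of 0.33 and *Pparg* of -0.52. The median over these 6 genes was 1.61, against 0.01 over all genes tested.

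None of the 6 slopes was called, where 0.0544% of all genes were (8 genes). At an unadjusted p under 0.05, 2 of the 6 passed, *Car3* and *Cidec*, where 11.5% of all genes did. Their unadjusted p values by edgeR were 0.000331 and 0.0326. The smallest adjusted p was that of *Car3*, 0.271, and without diabetic *Hif1a*+/- replicate 72 it was 0.0824 with a slope of 1.83, the 1 library whose removal brought it under 0.1. The range over the 12 libraries left out in turn was 0.0824 to 0.585.

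Of the 8 genes called, *Aqp1*, a water channel of endothelium and red cells, rose with *Adipoq* with a slope of 1.36 (SE 0.14, adjusted p = 0.00504 by edgeR). The other 7 fell, among them *Slc4a1* (-7.40), *Hbb-bt* (-5.26), *Alas2* (-4.98), *Egln3* (-1.65), *Amd1* (-1.32) and *Nudt4* (-1.24). *Hbb-bt* is a haemoglobin gene, *Alas2* makes haem in red cell precursors and *Slc4a1* is the anion exchanger of the red cell membrane, and *Hbb-bt* and *Alas2* were 2 of the 4 tested genes of the red cell list. Within both *Wt* groups the library richest in red cell markers was the one lowest in *Adipoq*. With replicates 25 and 50 both left out, a check added after the data were seen, 0 of all genes were called. The slopes of genes called with all libraries were then 1.26 for *Aqp1*, -2.51 for *Egln3*, -2.06 for *Amd1*, -1.40 for *Nudt4*, -3.73 for *Hbb-bt* and -3.26 for *Alas2* (adjusted p = 0.999 for each by edgeR). These 6 kept their direction with larger errors, such as SE 0.42 against 0.14 for *Aqp1*. For *Slc4a1*, the steepest of the slopes named, no value without the 2 libraries is given here. *Car3* then had a slope of 2.05 (SE 1.08), *Cidec* 0.81 (SE 2.33), *Cfd* 3.17 (SE 2.13), *Plin1* 1.55 (SE 2.76) and *Pparg* -1.76 (SE 1.12).

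Other lists held 0 called slopes. At an unadjusted p under 0.05, where 11.5% of all genes passed, fibroblast markers had 3 of 5 genes with positive slopes (median slope 0.68). Macrophage markers had 3 of 5 with positive slopes (median 0.89). Mesothelial markers, which line the surface of the heart, had 3 of 4 with negative slopes (median -3.34). The haemoglobin-rich libraries had the highest mesothelial sum of each *Wt* group (14.6 and 17.4 CPM). No slopes of these lists without those libraries are given here. Storage and lipolysis genes had a median slope of -0.11, lipid uptake genes of 0 and endothelial markers of 0.09. *Lepr* had a slope of 0.98 (unadjusted p = 0.000521, adjusted p = 0.281 by edgeR).

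**Figure D4:**
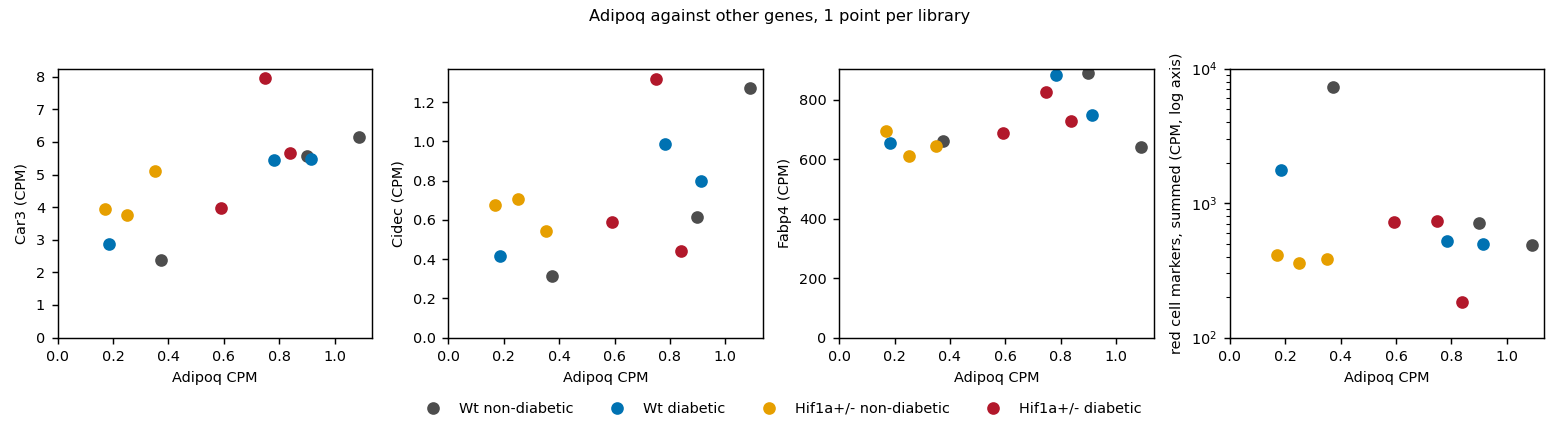
Levels of *Car3*, *Cidec*, *Fabp4* and the sum of 5 red cell markers (log axis) against *Adipoq*, all in CPM, 1 point per library and coloured by group. The red cell sum is highest (7320 and 1770 CPM) in 2 *Wt* libraries with *Adipoq* at 0.374 and 0.185 CPM, and *Car3* is lowest in the same libraries (2.37 and 2.86 CPM).

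Over all 12 libraries, without taking out group means, the gene with the pattern most like *Adipoq* was *Runx1t1* (Pearson's r = 0.85 of log2(CPM + 1), 14699 genes ranked), followed by *Smarcd2* (0.85), *Vamp2* (0.84), *Mpeg1*, *Cd33*, *Tnip2* and *Msc* (0.83 each), *Ggt5* (0.82), *Naalad2* and *Gm7353* (0.81 each). These correlations describe 12 libraries that share groups and composition. *Car3* had an r of 0.73, which places it at rank 52 among those genes, *Cidec* 0.53 (rank 816), *Cfd* 0.51 (rank 939) and *Plin1* 0.49 (rank 1136). The remaining values were 0.56 for *Fabp4*, -0.17 for *Retn*, -0.26 for *Pparg*, -0.36 for *Lep* and 0.02 for *Ucp1*. None of the adipocyte genes was thus among the 10 genes closest to *Adipoq*.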

How the data were processed

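LV RNA of 12 offspring was profiled by 3′-seq. The authors trimmed the reads with Trimmomatic, removed ribosomal reads, aligned the rest with STAR (version 2.5.2b, per the submitters' processing notes) to GRCm38 with a GENCODE annotation, and assigned them to genes with htseq-count. These deposited counts are whole numbers, not normalized. The deposited normalized values were not used. Reads given to no gene, 20.2% to 24.2% per library and including multi-mapped reads, stayed out of library sizes.

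Groups came from the titles, genotype and pregnancy labels. The mice of a group came from different litters, and the 12 pairs of libraries within groups were separate samples by their counts (chi-square of 5.15 to 42.5 per gene). Counts were tested with edgeR 4.0.16 in R 4.3.3: TMM, the default filter on low counts (14706 of 27093 genes), 1 mean per group, quasi-likelihood test, Benjamini-Hochberg adjustment and a threshold of 0.1, as in the study. The same fit with log2(CPM + 1) of *Adipoq* as a covariate gave slopes. The fit had 8 residual degrees of freedom and a biological coefficient of variation of 13.7%. Likeness to *Adipoq* was Pearson's r of log2(CPM + 1). The code was checked on simulated counts. Positions came from GENCODE M21 of GRCm38, and 46488 of 46983 identifiers had a symbol there.

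The genes named were the 10 adipocyte genes, *Hif1a*, up to 4 genes of each list by the p of the slope and the 10 genes most like *Adipoq*. A gene with a called slope is not reported here. Other list genes named for a comparison or a level were chosen after their values were seen. The adipocyte genes and lists were chosen with earlier results of these data known. Alternatives were DESeq2 1.42.0, DESeq2 size factors in edgeR, no filter on low counts, a fit of only the 2 groups compared, slopes without group means, a pseudocount of 0.1, Spearman's coefficient and leaving out each library.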

Additional observations from a re-analysis of the deposited data

How the results depend on the processing

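No adipocyte gene was called between groups by edgeR, by DESeq2, with DESeq2 size factors in edgeR, without the filter on low counts, with only the 2 groups compared in the fit, or with any library left out. *Adipoq* kept its direction in all of these, with estimates over the libraries left out of 1.23 to 1.73 between diabetic and non-diabetic *Hif1a*+/-, -1.91 to -1.32 between non-diabetic *Hif1a*+/- and *Wt*, and 1.36 to 2.1 for the interaction. Adjusted p values depended on the filter. Between diabetic and non-diabetic *Hif1a*+/-, edgeR without the filter gave 0.111 for *Cfd* and 0.127 for *Adipoq*. The main fit gave 0.467 and 0.362. Counts over all genes, 0 by edgeR, depended on the test more. DESeq2 called 4 genes for diabetes in *Wt*, 1 for genotype without diabetes, 68 for both factors together, 201 for diabetes in *Hif1a*+/-, 24 for genotype with diabetes, 203 for diabetes over both genotypes, 7 for genotype over both pregnancies and 131 for any difference. Without the filter edgeR called 129, 33, 445, 592, 220, 593, 77 and 689 genes in the same order, and 78 for the interaction. A fit of only the 2 *Hif1a*+/- groups called 101. Leaving out 1 library gave 0 to 38 genes between diabetic and non-diabetic *Hif1a*+/- (38 without diabetic *Hif1a*+/- replicate 72), 0 to 21 for diabetes over both genotypes (21 without diabetic *Wt* replicate 50), 0 to 5 for any difference, 0 to 2 for genotype over both pregnancies and between the 2 diabetic groups, and 0 to 1 for diabetic *Hif1a*+/- against non-diabetic *Wt* and for the interaction. The causes were not tested.

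Of the slopes on *Adipoq*, 8 genes were called, 0 without group means, 345 without the filter, 1 to 13 with 1 library left out (1 without non-diabetic *Wt* replicate 25) and 0 with both haemoglobin-rich libraries left out, where the slope of *Fabp4*, not called in any fit, was -0.73 in place of 0.33. The adipocyte genes called were 0 to 1 over the libraries left out, the 1 being *Car3* without diabetic *Hif1a*+/- replicate 72. Without the filter 1 was also called, *Car3* (slope 1.86, adjusted p = 0.000861 by edgeR, against 0.0824 to 0.585 over the libraries left out). Spearman's coefficient shared 4 of the 10 genes most like *Adipoq* by Pearson's r. No paired analysis was possible because the sample labels give no litter and the animal numbers are not shared between groups. *Wt* and *Hif1a*+/- offspring came from the same kind of mating, so whether any were littermates is not known here. Depth limits *Lep*, *Ucp1* and *Retn*, which had 2 to 79 counts over the 12 libraries.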
